A study of Mus musculus with 2 samples.

Results

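The genes described here are App, the precursor of amyloid-beta, its paralogs Aplp1 and Aplp2, and 6 genes of the enzymes that cut them: Adam10, Bace1, Psen2, Ncstn, Aph1a and Psenen. They were chosen by name, are 9 of the 32285 genes in the count tables, and each matched 1 row. Their counts were compared across cell types defined by marker genes and between both genotypes of the study. The data are single-cell RNA libraries, in which each captured transcript is tagged near its 3′ end with a unique molecular identifier (UMI). Cells came from dissociated whole brain of APP-KI mice aged 6 months, in which the App gene carries a knock-in. One genotype had intact Fit2 (Fit2-WT) and the other mutated Fit2 (Fit2-Mut), with 1 library each, and the series' design places the disruption in macrophages. Both genotypes are APP-KI, so no level below can be set against a brain without that allele. The labels used here state neither the exact App allele, the altered part of Fit2, the driver of its loss, nor how many animals went into a library.

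App spans the membrane and can be cut along alternative routes. Adam10, a metalloprotease, is the chief alpha-secretase and cuts inside the amyloid-beta sequence, while Bace1, an aspartyl protease, is the beta-secretase and cuts at its start. The remaining stub is cut within the membrane by gamma-secretase, a complex in which a presenilin such as Psen2 holds the active site and Ncstn (nicastrin), Aph1a and Psenen are partner subunits. Aplp1 and Aplp2 are cut by the same classes of enzyme but hold no amyloid-beta sequence. Neurons are the cells best known for App and Bace1, and suspensions of dissociated adult brain usually hold few of them.

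App lies at chr16:84949685-85173766 of GRCm38 (mm10), on the minus strand. Aplp1 lies at chr7:30434982-30445535 and Aplp2 at chr9:31149557-31211815, also on the minus strand. The stretches just before their starts are shown because these 3 genes share a protein family and had unlike patterns over cell types. The RefSeq windows (GRCm38.p6) hold 250 bases before the annotated start, and bases that GENCODE M21 puts inside the gene were left out. The printed parts lie at chr16:85173767-85173957, chr7:30445583-30445832 and chr9:31211849-31212098, run 5′ to 3′ on the minus strand, and carry GGGCGG, the core of a GC box, in capitals where it occurs on either strand.
App: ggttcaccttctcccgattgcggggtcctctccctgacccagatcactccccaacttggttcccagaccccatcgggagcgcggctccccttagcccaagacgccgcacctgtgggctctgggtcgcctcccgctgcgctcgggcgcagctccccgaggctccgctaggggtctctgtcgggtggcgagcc
Aplp1: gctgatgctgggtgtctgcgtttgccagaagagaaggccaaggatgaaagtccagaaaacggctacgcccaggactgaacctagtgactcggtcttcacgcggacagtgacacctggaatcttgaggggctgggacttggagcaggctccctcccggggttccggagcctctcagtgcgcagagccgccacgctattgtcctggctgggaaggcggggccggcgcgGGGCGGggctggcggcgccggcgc
Aplp2: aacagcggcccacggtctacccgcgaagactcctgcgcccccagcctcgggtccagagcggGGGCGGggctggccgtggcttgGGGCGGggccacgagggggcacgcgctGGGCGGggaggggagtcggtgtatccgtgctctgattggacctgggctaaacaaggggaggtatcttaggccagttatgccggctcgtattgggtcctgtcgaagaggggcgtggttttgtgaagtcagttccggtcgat
Over the full windows Aplp1 had 1 GGGCGG and Aplp2 had 3, while the 1 of App fell in the 59 bases left out. GGGCGG occurred in 32.7% of 32841 windows of that length, and TATAAA, searched likewise on both strands, in 12.4% of them and in none of these 3. App, Aplp1 and Aplp2 had 23, 20 and 22 CpG dinucleotides, against a median of 6 over all windows. A match describes the letters and is not a site.

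The cells used had at least 1000 UMIs, at least 500 genes and at most 10% mitochondrial UMIs. After doublets were removed, 5209 cells remained in Fit2-WT and 5824 in Fit2-Mut, with medians of 6817 and 7376 UMIs, and the libraries shared 9 barcodes. Names such as oligodendrocyte-like rest on fixed marker lists, and in each named type every listed marker was at least 2-fold above the other cells in both libraries. Several named clusters also passed the list of another type. Among them, the B cell-like cluster passed 7 B cell and 9 microglia markers, and the smooth muscle-like cluster 6 smooth muscle and 7 pericyte markers. Levels of the smooth muscle-like type therefore cannot be assigned to smooth muscle alone. Levels are summed UMIs of a type scaled to CPM, given for the 15 types with at least 30 cells in each library and always in the order Fit2-WT, Fit2-Mut. They are compared between types within a gene, never between genes. Free RNA, read from barcodes with 10 to 100 UMIs, held 521 and 673 CPM of App, 649.7 and 833 of Aplp1, 241 and 249.0 of Aplp2 and 22 and 30.7 of Bace1. Fitm2, the mouse gene of Fit2, had 16 UMIs in microglia-like cells of the intact genotype and 1 in those of the mutant, a ratio of 0.0523 (0.00125 to 0.336), although a 3′ tag may lie outside the altered part. With 1 library per genotype there is no replicate error, so all intervals are 95% exact intervals for counting error only and no p-value is given.

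App was highest in oligodendrocyte-like cells, at 2423 and 2493 CPM. Endothelial-like cells came next with 1324 and 1359 CPM, and the first type exceeded them 1.83-fold (1.75 to 1.91) and 1.83-fold (1.75 to 1.92). The other 13 of the 15 types lay below the App level of free RNA.
Fibroblast-like cells had 444 and 435 CPM of App, neutrophil-like cells 335 and 531, and smooth muscle-like cells 314 and 406. The choroid plexus-like type had 366 and 395 CPM. Neutrophil-like cells were below fibroblast-like cells in Fit2-WT and above them in the other library, so the order within these 4 types was not settled. Judged by Ttr, a choroid plexus transcript, the share of free RNA was at most 30.3% and 66.5% of the UMIs of smooth muscle-like, 1.88% and 39.3% of neutrophil-like and 1.245% and 9.79% of fibroblast-like cells. With that share subtracted, App was 156 and 0 CPM in smooth muscle-like, 325 and 267 in neutrophil-like and 437 and 369 in fibroblast-like cells, so that neutrophil-like cells were below fibroblast-like cells in both libraries. Monocyte-like cells had 211 and 322 CPM, neuroblast-like cells 274 and 192, ependymal-like cells 188 and 194, border-associated macrophage-like cells 158 and 169 and microglia-like cells 162 and 163. Astrocyte-like cells, with 59 and 63 CPM from 336 and 494 UMIs, were below every other type of glia. B cell-like cells had 63.6 and 113 CPM, T cell-like cells 31.3 and 23.8, and NK cell-like cells only 7 and 1 UMIs. The levels from monocyte-like cells onward are given without that subtraction, and free RNA held 521 and 673 CPM of App. By Ttr, its share was at most 35.1% and 1.54% in monocyte-like and 3.27% and 23.2% in neuroblast-like cells. It was at most 15.1% and 5.96% in ependymal-like, 11.8% and 6.92% in microglia-like and 4.87% and 5.48% in astrocyte-like cells. For B cell-like cells it was at most 18.2% and 1.1%. Of the 14 pairs of neighbours in this order, 4 were apart beyond counting error in both libraries, namely oligodendrocyte-like from endothelial-like, endothelial-like from fibroblast-like, microglia-like from B cell-like and astrocyte-like from T cell-like cells.
Neuron-like cells, with 24 and 37 cells, were too few for the order. They had 913 and 1039 CPM of App, and the 5 cells with most App held 47.3% and 42.5% of those UMIs.

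**Figure D1:**
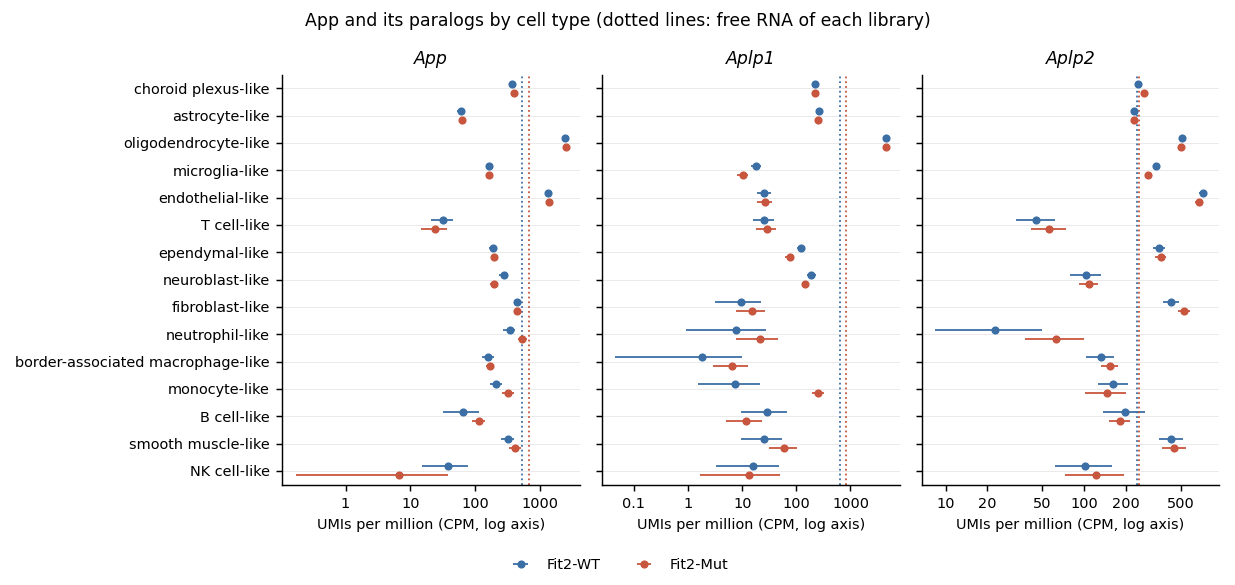
Levels of App, Aplp1 and Aplp2 (CPM, log axes) in the 15 cell types, with Fit2-WT in blue and Fit2-Mut in red. Points are the summed level of 1 library, bars the 95% counting interval and dotted lines free RNA; oligodendrocyte-like cells stand far to the right for Aplp1, at 4518 and 4448 CPM, while endothelial-like cells lead for Aplp2.

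Aplp1, a paralog best known from nerve cells, was concentrated in a single type. Oligodendrocyte-like cells had 4518 and 4448 CPM, 17.3-fold (16.4 to 18.2) and 17.8-fold (17 to 18.6) above astrocyte-like cells, which came next at 262 and 250.3 CPM. With cells weighted equally, with cells thinned or with free RNA subtracted, choroid plexus-like cells came next instead. Choroid plexus-like cells had 221 and 223 CPM and neuroblast-like cells 191 and 146. The 14 types other than oligodendrocyte-like cells lay below the Aplp1 level of free RNA. Endothelial-like cells, second for App, had only 25.5 and 26.1 CPM, close to T cell-like cells at 25.5 and 28.4. Monocyte-like cells had 7.27 and 255 CPM, and all 65 UMIs of the higher library lay in 5 cells.

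Aplp2, the paralog found in most tissues, was more even and had another leader. Endothelial-like cells had 718 and 676 CPM, 1.4-fold (1.32 to 1.49) and 1.34-fold (1.252 to 1.43) above oligodendrocyte-like cells at 512 and 505. Fibroblast-like cells had 425 and 526 CPM, smooth muscle-like cells 424 and 448, ependymal-like cells 349 and 357 and microglia-like cells 329 and 290.5. Choroid plexus-like cells, at 243 and 269 CPM, and astrocyte-like cells, at 229 and 229, lay near free RNA. The lowest were T cell-like cells with 45.2 and 55.6 CPM and neutrophil-like cells with 22.9 and 62.9, the latter from 6 and 18 UMIs.

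The 3 substrates stood in different ratios in different cells. For each App UMI, oligodendrocyte-like cells had 1.86 and 1.78 Aplp1 UMIs but 0.211 and 0.202 Aplp2 UMIs. Astrocyte-like cells had 4.44 and 3.97 of Aplp1 and 3.88 and 3.64 of Aplp2, which pool unlike clusters. The pair of clusters low in ribosomal protein UMIs, described below, had 189 and 176 Aplp1, 276 and 283 Aplp2 and 150 and 185 App UMIs. The rest of the astrocyte-like cells had 1302 and 1786 of Aplp1, 1028 and 1516 of Aplp2 and 186 and 309 of App. The Aplp2 ratio was 2.04 and 1.79 in microglia-like and 0.542 and 0.498 in endothelial-like cells. Capture can differ between genes, so such ratios are read only across types.
Oligodendrocyte-like cells, 14.1% and 16% of all cells, held 61.3% and 67.3% of the App UMIs and 85.1% and 87.6% of those of Aplp1. Choroid plexus-like cells held 21.2% and 17.2% of App UMIs and endothelial-like cells 8.59% and 5.46%. These shares depend on which cells were recovered in the suspension.

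Of the enzymes, Adam10 was highest in endothelial-like cells, as was Aplp2, with 257 and 247 CPM. Oligodendrocyte-like cells had 169 and 177 CPM and were exceeded 1.52-fold (1.36 to 1.69) and 1.4-fold (1.246 to 1.56). Microglia-like cells had 121 and 134 CPM, astrocyte-like cells 97.7 and 101 and T cell-like cells 75.3 and 93.1. Ependymal-like cells had 47.2 and 38.6 CPM. Choroid plexus-like cells were lowest at 16 and 17.3 CPM, from 268 and 287 UMIs, and ependymal-like cells exceeded them 2.96-fold (2.16 to 3.99) and 2.23-fold (1.64 to 2.98).

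Bace1 had another order. It was highest in oligodendrocyte-like cells, at 84.7 and 91.7 CPM. Smooth muscle-like cells, whose cluster also passed the pericyte list, came next at 55.1 and 50.8 CPM from 13 and 11 UMIs. Neuroblast-like cells had 37.5 and 28.8 CPM, fibroblast-like cells 30.7 and 21.2, astrocyte-like cells 25.6 and 23.7, and the endothelial-like type 20.2 and 20.9. Choroid plexus-like cells had 7.33 and 8.37 CPM, T cell-like cells 5.79 and 6.81 and microglia-like cells 5.62 and 5.0. These types and endothelial-like cells were below free RNA in both libraries. Neuroblast-like, fibroblast-like and astrocyte-like cells were below it in Fit2-Mut only. No pair of neighbours in the Bace1 order was apart in both libraries.

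The UMI ratio of Adam10 to Bace1 ranged widely. In microglia-like cells it was 21.5 (15.1 to 31.7) and 26.7 (19 to 38.8), and in endothelial-like cells 12.7 (9.13 to 18.2) and 11.8 (8.23 to 17.5). Astrocyte-like cells had 3.81 (3.17 to 4.6) and 4.25 (3.62 to 5.01), again over unlike clusters. Their pair low in ribosomal protein UMIs had 242 and 311 Adam10 beside 47 and 41 Bace1 UMIs. The rest had 314 and 479 beside 99 and 145. The ratio was 2.18 (1.75 to 2.72) and 2.06 (1.68 to 2.55) in the choroid plexus-like and 2.0 (1.81 to 2.2) and 1.93 (1.78 to 2.09) in the oligodendrocyte-like type. The last pair of types had like ratios at unlike levels, since both genes were high in oligodendrocyte-like and low in choroid plexus-like cells. T cell-like cells had 13 and 13.7, from only 5 and 6 Bace1 UMIs. Border-associated macrophage-like cells were near microglia-like cells, at 19 (6.18 to 94.9) and 24.3 (11.5 to 61.3), from 3 and 7 Bace1 UMIs. Monocyte-like cells had 11.5 and 20.5, from 4 and 2 Bace1 UMIs. The value in microglia-like cells depended on the handling of low counts, being 13 in Fit2-WT after each cell was thinned to 1000 UMIs and 35.7 and 43.6 with free RNA subtracted.

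**Figure D2:**
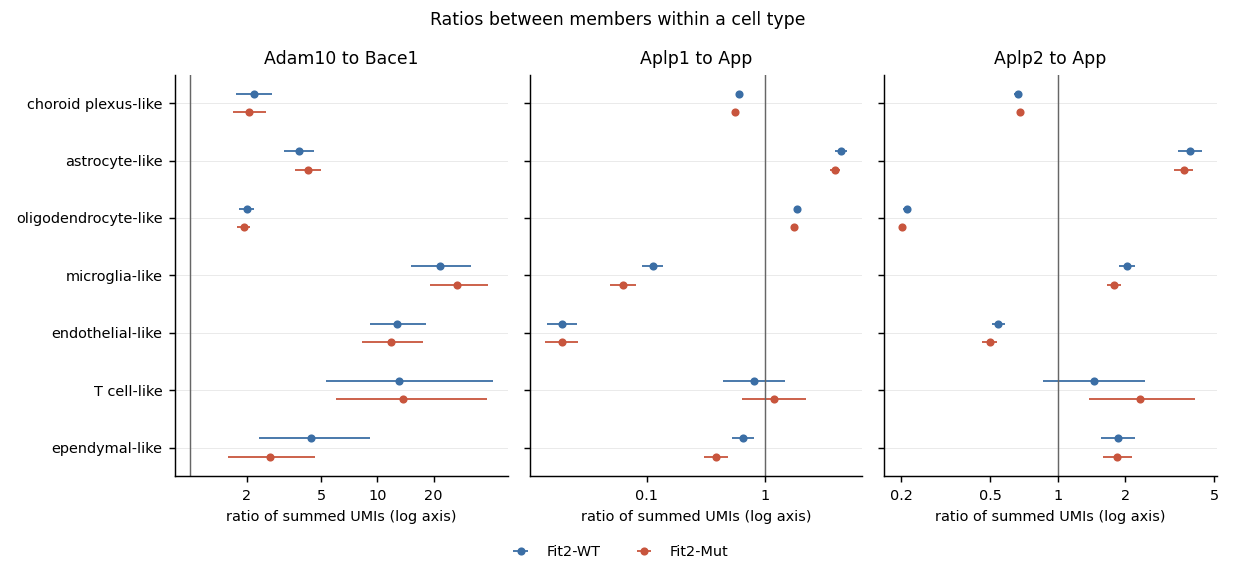
UMI ratios of Adam10 to Bace1, Aplp1 to App and Aplp2 to App (log axes) in the 7 types with at least 100 cells in each library, with 95% counting intervals and a line at 1. Of these types, Adam10 to Bace1 is highest in microglia-like cells, at 21.5 and 26.7. It is low in oligodendrocyte-like cells, at 2.0 and 1.93, and in choroid plexus-like cells, at 2.18 and 2.06, with overlapping intervals.

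Of the gamma-secretase subunits, Psenen, Ncstn and Aph1a were spread more evenly than Adam10 or Bace1, while the span of Psen2 rested on low counts. Psenen, the smallest subunit, ranged by the mean of both libraries from 103 and 108 CPM in astrocyte-like to 215 and 251 in NK cell-like cells, with 223 and 201 in oligodendrocyte-like cells. Aph1a was highest in endothelial-like cells, at 82.9 and 94.1 CPM, 1.37-fold (1.14 to 1.65) and 1.57-fold (1.3 to 1.88) above oligodendrocyte-like cells at 60.3 and 60.1. Choroid plexus-like cells had the lowest mean level of Aph1a, 26.7 and 26.7 CPM.
Ncstn, the subunit that receives the substrate, had its highest mean level in microglia-like cells, at 48.3 and 53.2 CPM. It was 22.5 and 23.2 in astrocyte-like and 19.2 and 22 in oligodendrocyte-like cells. B cell-like cells, at 52.1 and 45.9 CPM from 9 and 31 UMIs, were not apart from microglia-like cells. The B cell-like cluster also passed the microglia list, and the part of microglial RNA in its level was not tested.
Psen2 was high in lymphoid and oligodendrocyte-like cells. B cell-like cells had 57.9 and 41.5 CPM, T cell-like cells 53.3 and 44.3, oligodendrocyte-like cells 44.9 and 42.6 and neutrophil-like cells 49.5 and 34.9. Microglia-like cells had 29 and 27.2 CPM, astrocyte-like cells 14.2 and 16.2 and the choroid plexus-like type 11.7 and 12.2. The neuroblast-like type had 3.26 and 3.43 CPM, from 2 and 5 UMIs. From the highest type, B cell-like with 10 and 28 UMIs, to this lowest one the span was 17.8-fold (3.78 to 167) and 12.1-fold (4.61 to 40.1). The top type of Psen2 was kept in only 3 of 9 settings. No neighbours in the orders of Psen2, Ncstn or Psenen were apart in both libraries.

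**Figure D3:**
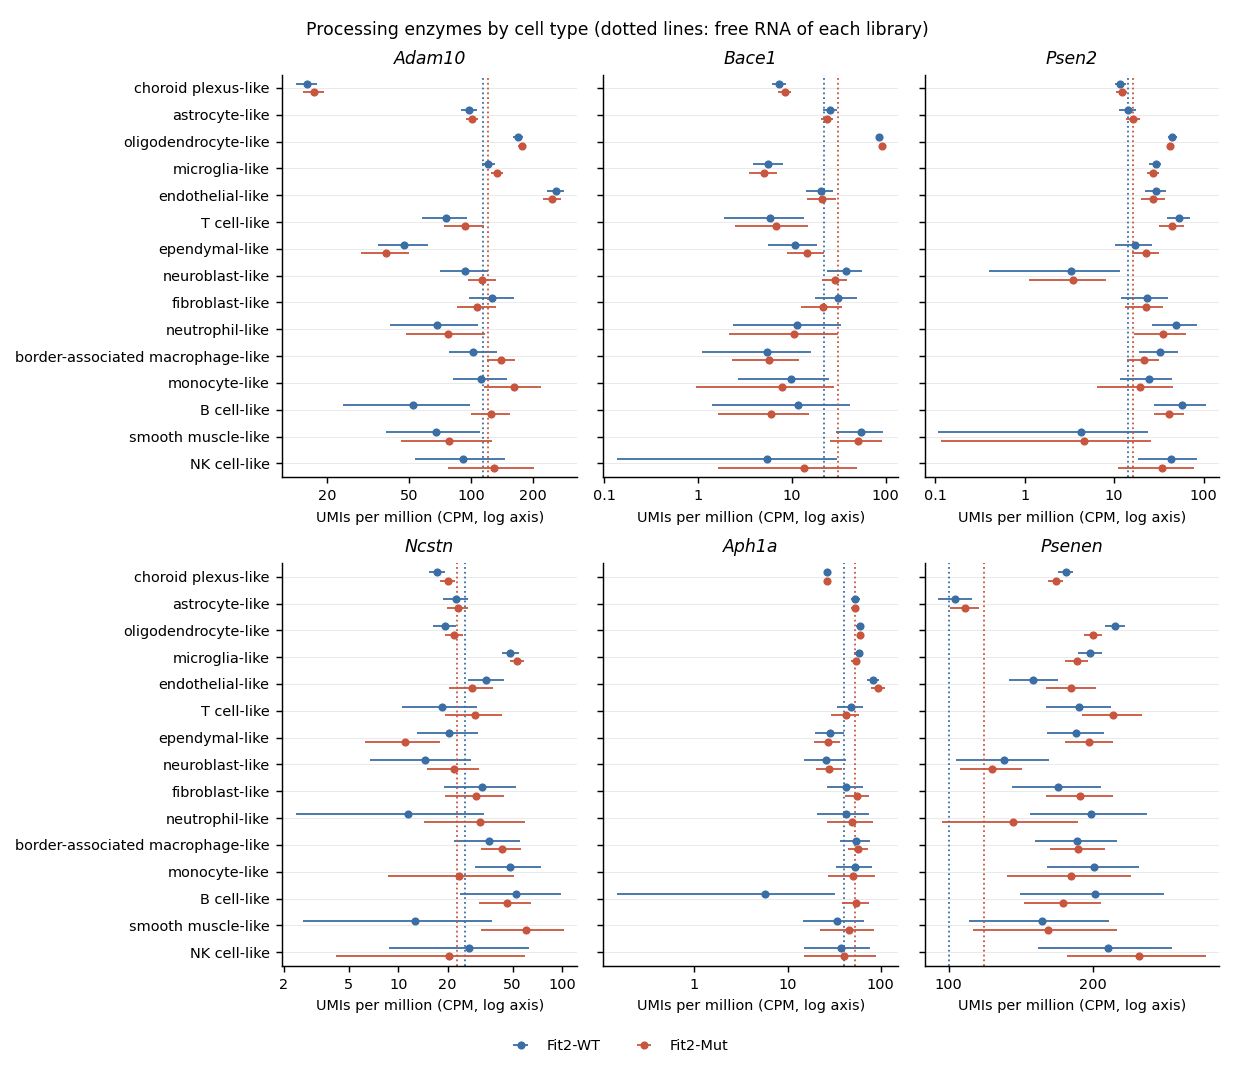
Levels of the 6 enzyme genes (CPM, log axes with different ranges) in the 15 cell types, drawn as for App and its paralogs. Bace1 peaks in oligodendrocyte-like cells, at 84.7 and 91.7 CPM, Adam10 and Aph1a in endothelial-like cells, and Psenen varies little.

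Set against all other cells, 5 of the 9 members were at least 2-fold higher in oligodendrocyte-like cells of both libraries, where 12.2% of 18685 genes were. They were Aplp1 (28.2 and 29-fold), App (7.77 and 8.45-fold), Bace1 (6.83 and 7.22-fold), Psen2 (2.44 and 2.32-fold) and Adam10 (2.41 and 2.23-fold). Endothelial-like cells had 2, Aplp2 (2.42 and 2.21-fold) and Adam10 (3.24 and 2.63-fold), with a background of 11%. Microglia-like cells had 1, Ncstn (2.33 and 2.31-fold), with a background of 11.3%. Astrocyte-like, choroid plexus-like, ependymal-like and T cell-like cells had 0, with backgrounds of 22.2%, 9.25%, 18.0% and 10.5%.
At or below 0.5-fold of the other cells were 6 members in choroid plexus-like cells (background 57.7%), 4 in T cell-like (45.6%), 3 in microglia-like (42.5%), 2 in astrocyte-like (31.9%), 2 in ependymal-like (26.1%), 1 in endothelial-like (36.9%) and 0 in oligodendrocyte-like cells (40.0%). These are descriptions of clustered cells and carry no test, although none of the 9 genes was among the variable genes used to cluster.

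The share of cells with a UMI was read after each cell was thinned to 1000 UMIs. App was then seen in 89.1% (86.7 to 91.3) and 90.5% (88.5 to 92.3) of oligodendrocyte-like cells, against 99.2% and 99.4% before thinning. In endothelial-like cells the thinned shares were 70.7% and 67.6% and the unthinned ones 97.9% and 97.4%. In astrocyte-like cells they were 4.96% and 5.91% thinned and 20.9% and 23.1% unthinned. T cell-like cells, taken as the background, had App in 2.16% (0.592 to 5.44) and 2.13% (0.583 to 5.36) of cells thinned and in 14.1% and 10.6% unthinned.
Bace1 was seen in 7.47% (5.68 to 9.62) and 7.21% (5.63 to 9.07) of thinned oligodendrocyte-like cells and in 46.6% and 52.6% unthinned, at median depths of 8922 and 9701 UMIs. Of thinned T cell-like cells, 0 of 185 had a Bace1 UMI in Fit2-WT, for which a floor of 3 cells, and not an interval, gives up to 1.62%, and 1.06% (0.129 to 3.79) did in Fit2-Mut. Their unthinned shares were 2.7% and 3.19%, at median depths of 4161 and 4174 UMIs. Microglia-like cells, at 1.1% and 0.717% thinned, lay at that background. Aplp1 in thinned microglia-like cells, at 0.733% and 0.896%, was below T cell-like cells at 3.78% and 1.6%. Adam10 was seen in 17.3% and 19.4% of thinned endothelial-like cells and in 59.4% and 58.5% unthinned.

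Clusters within a type differed for several members, which is a description and not a test. Microglia-like cells fell into clusters led by Spp1 (303 and 336 cells), Gm38843 (141 and 118) and Tmem119 (102 and 104). Spp1 and Gpnmb, both among the leading genes of the first, are known from microglia around amyloid plaques, and Tmem119 is a gene of resting microglia. Aplp2 was 405 and 343 CPM in the Spp1-led and 71.5 and 67.1 in the Tmem119-led cluster, 5.66-fold (4.3 to 7.61) and 5.12-fold (3.96 to 6.73) higher in the former. Adam10 went the other way, with 114 and 123 CPM in the Spp1-led and 217 and 262 in the Tmem119-led cluster. App was close in both, at 172 and 169.8 and at 157 and 169 CPM, with ratios of 1.1 (0.90 to 1.35) and 1.01 (0.846 to 1.2), although the latter was 0.542 in cells thinned to 1000 UMIs. The Gm38843-led cluster, with medians of 3957 and 3928 UMIs a cell and 30.8 and 31.1% ribosomal protein UMIs, was lowest for Adam10, at 70.4 and 42.7 CPM.

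Oligodendrocyte-like cells held a cluster led by Opalin, a myelin gene (450 and 564 cells), and one led by Klk6, a serine protease gene (286 and 365 cells). Bace1 was 108 and 115 CPM in the Klk6-led and 59.6 and 66.2 in the Opalin-led cluster. Psen2 was also higher with Klk6, at 53.7 and 53.2 CPM against 35.3 and 31.1. App was lower there, at 2277 and 2279 CPM against 2583 and 2727, and Aplp1 higher, at 4797 and 4662 against 4214 and 4215.
Astrocyte-like cells held a pair of clusters with under 1% ribosomal protein UMIs (0.389 and 0.398% in one and 0.424 and 0.271% in the other) and a pair with more (1.36 and 1.36% and 2.37 and 2.15%). Over the low pair, Psenen was 14.7 and 13.3 CPM, against 164 and 156 in the rest. Aplp1 was 81.7 and 66.8 against 385 and 343 CPM, and Aplp2 119 and 107 against 304 and 291. The other subunits and Bace1 were lower there too. The ratio of the low pair to the rest was 0.693 and 0.559 for Bace1 and 0.448 and 0.559 for Psen2. It was 0.572 and 0.575 for Ncstn and 0.435 and 0.523 for Aph1a. App, at 64.8 and 70.2 against 55 and 59.4 CPM, and Adam10, at 105 and 118 against 92.9 and 92, were not lower in the low pair. The part of RNA quality in this split was not tested. Without the low pair, astrocyte-like cells were above neuroblast-like cells for Psenen.

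**Figure D4:**
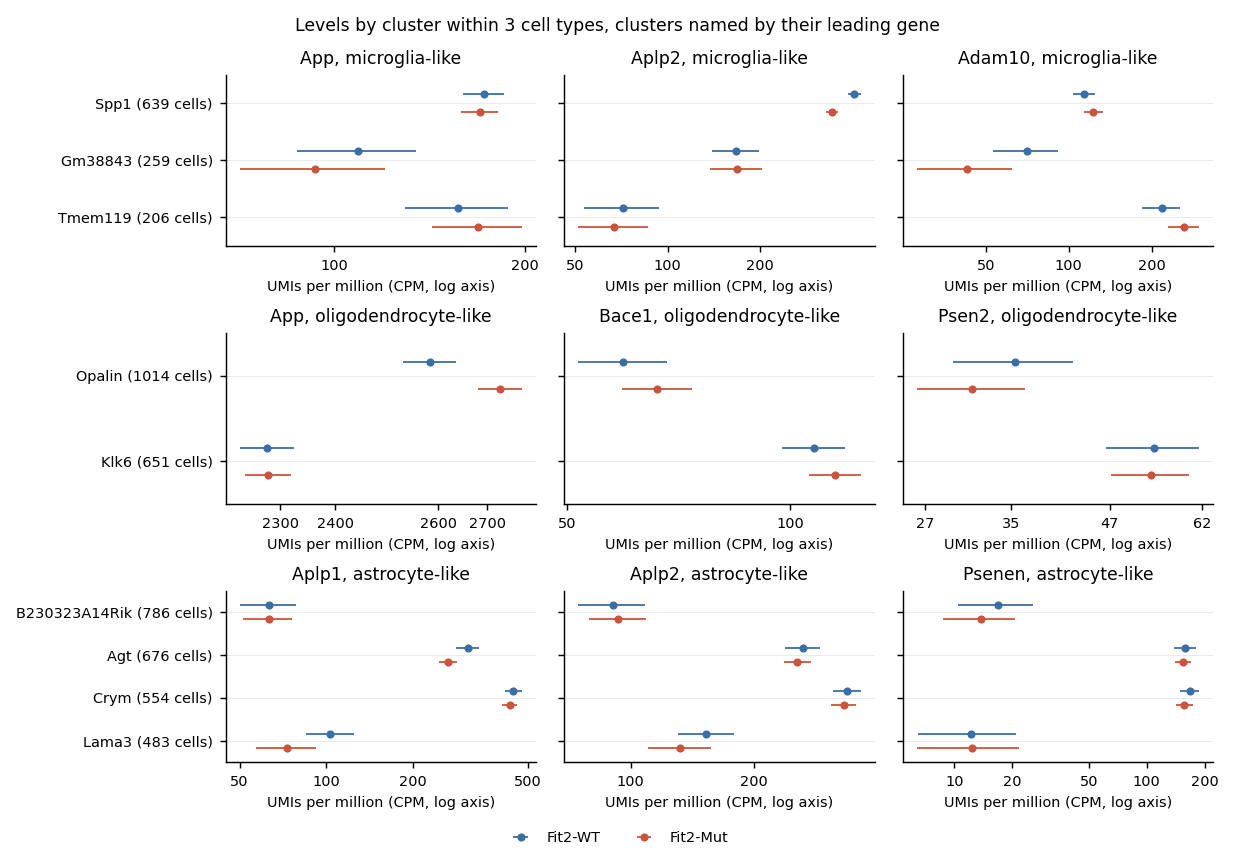
Levels of 3 members in the clusters of microglia-like, oligodendrocyte-like and astrocyte-like cells (CPM, log axes), each cluster named by its leading gene, with 95% counting intervals. In microglia-like cells Aplp2 and Adam10 run in opposite orders between the Spp1-led and Tmem119-led clusters, and in astrocyte-like cells Psenen falls into a low and a high pair of clusters.

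Between genotypes most members lay within 1.5-fold, as most genes did. Of 62 pairs of a member and a type with at least 20 UMIs, 4 had a ratio of mutant to intact genotype of at least 1.5 either way. Of all genes, between 6.08% and 19.0% were past that ratio, depending on the type. In microglia-like cells, the brain's own macrophages, 1 of 9 members was past that ratio, where 9.87% of all genes were. It was Aplp1, at 18.1 and 10.3 CPM (ratio 0.568, 0.413 to 0.778), and 5 cells held 68.9% of its Fit2-WT UMIs. Without the 5 cells of each library with most Aplp1 UMIs the ratio was 1.37, and after thinning it was 1.22, both in the opposite direction. With free RNA subtracted, at a share judged by Ttr of 11.8% and 6.92%, the Aplp1 level was 0 and 0 CPM and there was no ratio. In the same cells App had a ratio of 1.01 (0.921 to 1.1), Adam10 1.1 (0.998 to 1.22), Ncstn 1.1 (0.939 to 1.29) and Bace1 0.889 (0.532 to 1.49). The direction of App was not kept either. Its ratio was below 1 in some settings and went up to 1.16 in another, above its counting interval. Aplp2 had 0.882 (0.828 to 0.94), from 1873 and 1976 UMIs. The direction of Aplp2 was not kept, since over all settings the Aplp2 ratio ran from 0.817 to 1.24.

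Ependymal-like cells had 2 of 9 members past 1.5-fold, with a background of 15%. Aplp1 was 123 and 75.1 CPM (0.61, 0.47 to 0.79), and 5 cells held 42.8% of its Fit2-WT UMIs. That ratio turned to 1.93 after thinning and to 1.63 with doublets kept. Ncstn was 20.5 and 11 CPM (0.537, 0.265 to 1.06), from 23 and 16 UMIs. T cell-like cells had 1 of 8, Ncstn at 18.5 and 29.5 CPM (1.59, 0.823 to 3.18), with a background of 19.0%. Astrocyte-like, choroid plexus-like, endothelial-like and oligodendrocyte-like cells had 0 of 9, with backgrounds of 7.11%, 6.08%, 11.4% and 8.27%.
Within 1.5-fold some intervals left out 1. App was 1.08 (1.04 to 1.12) in choroid plexus-like and 1.03 (1.01 to 1.05) in oligodendrocyte-like cells, and Aplp2 1.1 (1.06 to 1.15) in choroid plexus-like cells. Psenen was 1.2 (1.01 to 1.42) in endothelial-like but 0.901 (0.844 to 0.962) in oligodendrocyte-like cells. Over all settings of the processing the former ran from 0.962 to 1.21, past 1, and the latter from 0.875 to 0.985. The intervals take no account of variation between animals or preparations.

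**Figure D5:**
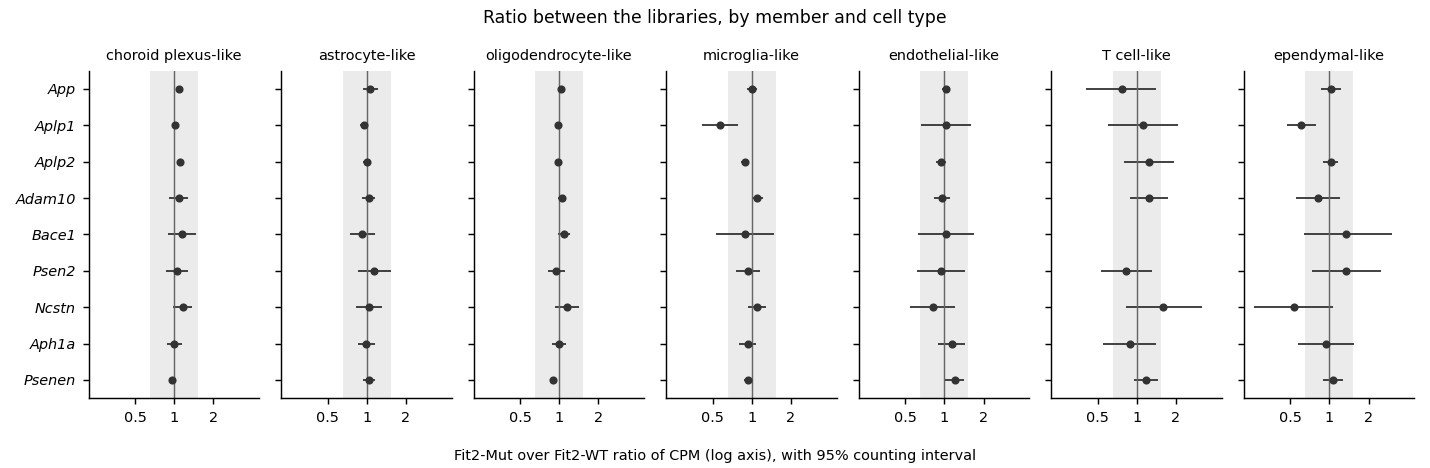
Ratio of Fit2-Mut to Fit2-WT (log axis) for each member in the 7 types with at least 100 cells in each library, with 95% counting intervals, a line at 1 and a grey band for ratios within 1.5-fold. Points outside the band are Aplp1 in microglia-like and ependymal-like cells and Ncstn in T cell-like and ependymal-like cells.

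Of the wider pathway, 31 genes in 4 lists were read, each placed by its highest mean level over both libraries. In the list of 5 other secretases, Bace2, a homologue of Bace1, was highest in ependymal-like cells at 111 and 106 CPM, and Adam17, another metalloprotease with alpha-secretase activity, in monocyte-like cells at 136 and 94.1. Aph1b, a further Aph1 gene, was highest in ependymal-like cells at 46.4 and 66.8 CPM, Aph1c in border-associated macrophage-like cells at 70.2 and 24.7 and Adam9 in fibroblast-like cells at 42.3 and 42.4. In ependymal-like cells 3 of 5 of these genes (Adam17, Adam9 and Aph1c) were past 1.5-fold between genotypes, all higher in the mutant, where 15% of all genes were past it either way, and each interval held 1. In T cell-like cells 1 of 1 was (Adam17), with a background of 19.0%, in microglia-like cells 1 of 4 (Aph1b, 1.86, 0.809 to 4.64), with 9.87%, and in astrocyte-like, choroid plexus-like, endothelial-like and oligodendrocyte-like cells 0 were.

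Of the 15 adaptor and sorting genes, Sorcs1 (326 and 349 CPM), Sort1 (300.2 and 320.1), Apbb1 (216 and 211) and Appbp2 (122 and 119) were highest in oligodendrocyte-like cells, as App was. Sorl1, a sorting receptor that binds App, was highest in neutrophil-like cells at 1131 and 1104 CPM, next in astrocyte-like cells at 192 and 180.1 and lowest in endothelial-like cells at 1.06 and 0.653. Lrp1, an endocytic receptor, was highest in fibroblast-like cells at 369 and 344 CPM and lowest in oligodendrocyte-like cells at 2.32 and 1.94. Apba2 (242 and 249.4 CPM) and Dab1 (267 and 218) were highest in astrocyte-like cells, Apbb3 (13.8 and 10.5) and Apba3 (11.2 and 12.4) in endothelial-like, Apbb2 (352 and 355) and Apba1 (136 and 157) in smooth muscle-like and Numb (244 and 292) in microglia-like cells. Gga1 and Gga3 were highest in NK cell-like cells, from only 8 and 8 and 1 and 5 UMIs.
Between genotypes, 5 pathway genes were past 1.5-fold with an interval that left out 1. They were Adam17 (2.19, 1.1 to 4.58) and Numb (0.563, 0.36 to 0.867) in T cell-like, Gga3 (1.63, 1.15 to 2.33) in astrocyte-like, Apba1 (0.592, 0.356 to 0.962) in endothelial-like and Dab1 (0.382, 0.198 to 0.709) in microglia-like cells. Dab1 had 35 and 16 UMIs in microglia-like cells. The share of all genes past both limits was not taken, so the count of 5 has no background beside it. Regardless of the interval, the adaptor and sorting genes past 1.5-fold were 2 of 4 in T cell-like (background 19.0%), 2 of 13 in choroid plexus-like (6.08%), 1 of 10 in endothelial-like (11.4%) and 1 of 14 in microglia-like cells (9.87%), all lower in the mutant. They were 1 of 15 in astrocyte-like cells (7.11%), higher, and 0 of 11 in ependymal-like (15%) and 0 of 15 in oligodendrocyte-like cells (8.27%).

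Among 6 modulators of the secretases, Itm2b, whose protein binds App, was highest in microglia-like cells at 4508 and 4626 CPM and Itm2c in ependymal-like cells at 1212 and 1437. Rtn4 (2498 and 2555 CPM) and Tmed10 (637 and 624) were highest in oligodendrocyte-like cells, Rtn3, a reticulon that binds Bace1, in neuroblast-like cells (516 and 477) and Gsap in NK cell-like cells (215 and 284). Of 5 genes that degrade or bind amyloid-beta, Cst3, cystatin C, was highest in microglia-like cells at 32148 and 31605 CPM and Ece1, a metalloprotease, in endothelial-like cells at 248.7 and 235. Ide, the insulin-degrading enzyme, was highest in NK cell-like cells at 91.4 and 40.6 CPM from 17 and 6 UMIs, and Ece2 in neuroblast-like cells at 16.3 and 19.2. Mme, neprilysin, reached only 13.4 and 7.48 CPM, in fibroblast-like cells. Between genotypes, 1 of 6 modulators was past 1.5-fold in T cell-like cells (background 19.0%), lower in the mutant, and 1 of 6 in ependymal-like cells (15%), higher. Of the genes that degrade or bind amyloid-beta, 1 of 3 was higher in each of the same types. In the other 5 types 0 of either list were.

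Across the 15 types, the genes whose mean log2(CPM + 1) ran most like a member's among 9440 genes were named with Pearson's r, as a description with no test, over points that share 2 libraries and differ in depth. For App they were Arpc1a, Git1 and Gstm7 (0.84, 0.83 and 0.83), for Aplp1 Dusp15, Pls1 and 9330182L06Rik (0.90, 0.89 and 0.89) and for Aplp2 Wwc2, Sec31a and Mpv17 (0.88, 0.87 and 0.87). For Adam10 they were Prkd3, Elf2 and Rnpepl1 (0.89, 0.87 and 0.87) and for Bace1 Vamp2, Rcan2 and Dync1li2 (0.93, 0.92 and 0.90). For Psen2 they were Tmc6, Relb and Tmem192 (0.80, 0.78 and 0.78), for Ncstn Pold4, Usp12 and Grn (0.92, 0.91 and 0.89), for Aph1a Selenop, Adam10 and Nr3c1 (0.84, 0.77 and 0.77) and for Psenen Cd82, Tent5a and Sys1 (0.89, 0.85 and 0.84). Among the members, r was 0.57 for App with Aplp2, 0.57 for App with Bace1 and 0.19 for App with Adam10.

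Several members overlap a gene on the other strand, among them Ncstn with Copa, Aph1a with Car14, Psenen with U2af1l4, Bace1 with Rnf214 and App with Gm10791. Whether counting used the strand is not given in the sources used here, and an effect of these overlaps on the levels was not tested.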

How the data were processed

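Single-cell RNA was measured in 2 libraries of dissociated brain, 1 per genotype. The deposited values are whole UMI counts per gene and barcode, made by the authors with Cell Ranger against mm10 (version 7.0.0 per the submitters' processing notes, 7.1.0 per the file headers). Cells were kept at 1000 UMIs, 500 genes and 10% mitochondrial UMIs or better, and doublets were removed with Scrublet at an assumed 0.8% per 1000 cells. Both libraries were clustered together with scanpy 1.11.5 (2000 variable genes without the members and pathway genes, 30 components, 15 neighbours, Leiden resolution 1). A cluster was named when at least 3 markers and 0.5 of a list were 2-fold above the other cells and in 10% of its cells, with a tie-break added after the data were seen. Doubtful clusters stayed unnamed. Counts were summed by type and library. Intervals were exact (scipy 1.17.1) and were checked on simulated data. Genes were named by rule: all members, pathway genes by top type or by a 1.5-fold ratio whose interval left out 1, and the 3 genes most like each member. Extra names are the clusters' leading genes and overlapping genes. The members and lists were chosen with earlier results of these data known. Intervals cover counting error only.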

Additional observations from a re-analysis of the deposited data

How the results depend on the processing

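Scaling by TMM (edgeR 4.0.16) or by the median of ratios left every ratio between genotypes on its side of 1.5-fold. App in microglia-like cells turned from 1.01 to 0.971 under both, and Aph1a in choroid plexus-like cells from 1.0001 to 0.997 under the latter. The Aplp1 ratio in ependymal-like cells turned to 1.63 with doublets kept, 1.93 after thinning and 1.02 with free RNA subtracted. In microglia-like cells it turned to 1.10 at 500 UMIs and 250 genes, 1.07 with cells weighted equally, 1.22 after thinning and 1.37 without the 5 cells with most UMIs. The cause was not tested. The count of 4 pairs past 1.5-fold was 2 with cells weighted equally, 2 at 100 UMIs and 7 at a lower limit of the ratio. With Spearman's rho, 7 of 27 most alike genes were shared.
After thinning, App in oligodendrocyte-like over endothelial-like cells was 1.72 and 1.92 (1.93 in Fit2-WT with doublets kept), Aplp2 in endothelial-like over oligodendrocyte-like cells 1.55 and 1.23, and Adam10 in endothelial-like over choroid plexus-like cells 10.5 and 10.2, against 16.1 and 14.3 unthinned. Adam10 to Bace1 in microglia-like cells was 13 in Fit2-WT after thinning, and 35.7 and 43.6 with free RNA subtracted. In oligodendrocyte-like cells it was 2.21 in Fit2-WT with cells weighted equally and 2.23 in Fit2-Mut after thinning. In Fit2-Mut after thinning, the Spp1-led over the Tmem119-led cluster was 6.93 for Aplp2 and 0.542 for App, and the Klk6-led over the Opalin-led cluster was 1.34 for Bace1. App in the Opalin-led over the Klk6-led cluster was 1.08 and 1.15 with cells weighted equally, and 1.12 in Fit2-Mut after thinning. App, Aplp1, Aplp2, Bace1, Aph1a and Adam10 had the same top type in 9 of 9 settings, Psenen in 7, Ncstn in 6 and Psen2 in 3.
No paired analysis was possible because each genotype has 1 library, and for the same reason no replicate could be left out. Low counts limit Bace1, Psen2 and Ncstn in the small types.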
